A study of Mus musculus with 6 samples.

Results

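The motor neuron LIM homeodomain code was taken as the rows of 9 gene symbols among the 55433 genes of each deposited count table, and all 9 were found. They are the LIM homeodomain transcription factors Isl1, Isl2, Lhx3 and Lhx4, the homeobox factor Mnx1, the LIM domain binding cofactors Ldb1 and Ldb2, and the LIM-only proteins Lmo1 and Lmo4. RNA came from whole spinal cords of C57BL/6J mouse embryos at E13.5, to ask what NFIA does as motor neurons develop. The 3 embryos labelled NFIAcKO carried NFIA-ff with Nestin-cre, a transgene that drives cre recombinase in neural progenitors and so also in the neurons and glia born from them. The 3 embryos labelled control carried NFIA-ff without cre, so cre and the deletion of Nfia were not separated by the design.

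LIM homeodomain factors specify neuron classes in the spinal cord through the protein complexes they enter. In newborn motor neurons Isl1 and Lhx3 bind together to dimers of Ldb1 and switch on motor neuron genes, while Lhx3 bound to Ldb1 without Isl1 directs the V2 interneuron fate. Mnx1, also called Hb9, holds V2 genes off in motor neurons. LIM-only proteins have no DNA-binding domain and compete for Ldb1.

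Nfia, the targeted gene, was higher and not lower in the libraries labelled NFIAcKO. It stood at 106, 108 and 119 CPM (counts scaled to the TMM-adjusted library size) in NFIAcKO replicates 1 to 3, against 60.1, 59.0 and 79.2 CPM in control replicates 1 to 3. Its log2 fold change was 0.75 (SE 0.11, edgeR adjusted p = 0.0031), and it was called in every alternative run. The tables give 1 count for the whole gene and none for single exons, so the level is no test of a deletion, and it goes against the labels. Every direction below is relative to the labels and subject to that.

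Libraries held 43393053 to 51465763 counts on genes. Among 17711 tested genes, 13.9% were called at an adjusted p under 0.05, 7.86% as higher and 6.08% as lower in the libraries labelled NFIAcKO. Higher calls made up 56.4% of all calls, and 42.4% under upper quartile scaling. Each gene's log2 level, taken relative to its own mean over the 6 libraries, followed exonic length. The slope per doubling of length was 0.0396 to 0.0933 in libraries labelled NFIAcKO, against -0.117 to -0.0189 in those labelled control. Such slopes compare libraries with each other, and their signs do not say whether levels rise with length within a library. Fold changes with this trend and that of GC content removed are given beside the calls that they end or add among the members and list genes named. The leading number of the file names, whose meaning is not given in the sources used here, put both libraries of replicate number 3 apart from the other 4. The cholinergic genes that define motor neurons were all detected.

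The sequence next to the transcription start is shown for 4 members so that the arm TTGGC can be located in it, NFI proteins being known to bind a palindrome of TTGGC and GCCAA with 5 letters between the arms, or 1 arm alone. Mnx1, Lhx3 and Lhx4 are the transcription factors among the members whose levels did not overlap between groups, and Isl1 is the member that defines the code. Each sequence is the 250 bases before the start of the RefSeq gene in GRCm38.p6, written 5′ to 3′ on the minus strand, on which all 4 genes lie, with TTGGC or its complement GCCAA in capitals.
Mnx1, chr5:29478471-29478720: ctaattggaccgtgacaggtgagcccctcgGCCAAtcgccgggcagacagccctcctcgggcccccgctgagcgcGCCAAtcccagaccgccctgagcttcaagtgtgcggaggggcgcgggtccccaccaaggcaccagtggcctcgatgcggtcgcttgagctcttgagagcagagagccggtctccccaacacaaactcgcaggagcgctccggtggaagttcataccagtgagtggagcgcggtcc
Lhx3, chr2:26208250-26208499: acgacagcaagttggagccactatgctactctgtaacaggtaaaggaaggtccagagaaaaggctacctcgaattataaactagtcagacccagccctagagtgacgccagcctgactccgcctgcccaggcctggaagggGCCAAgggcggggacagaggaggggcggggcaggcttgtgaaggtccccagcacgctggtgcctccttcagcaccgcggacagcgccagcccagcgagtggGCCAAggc
Lhx4, chr1:155742028-155742277: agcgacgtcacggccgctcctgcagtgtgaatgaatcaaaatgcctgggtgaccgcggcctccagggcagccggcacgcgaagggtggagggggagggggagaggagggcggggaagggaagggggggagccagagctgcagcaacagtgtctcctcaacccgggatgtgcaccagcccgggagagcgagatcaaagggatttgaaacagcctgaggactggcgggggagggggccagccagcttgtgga
Isl1, chr13:116309689-116309938: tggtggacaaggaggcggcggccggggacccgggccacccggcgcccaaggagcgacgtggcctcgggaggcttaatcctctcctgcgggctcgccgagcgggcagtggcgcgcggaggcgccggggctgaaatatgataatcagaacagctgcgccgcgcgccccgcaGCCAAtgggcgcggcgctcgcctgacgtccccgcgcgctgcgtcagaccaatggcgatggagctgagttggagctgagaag

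On both strands, Mnx1 held the arm at 220 and 175 bases before the start, and both matches overlapped a CCAAT box, whose letters are CCAAT or ATTGG. Isl1 held it at 81 bases, also over a CCAAT box. In the window shown, Lhx3 held it at 109 and 8 bases with no CCAAT overlap, and the Lhx4 window held none. A second Lhx3 window, before another start and not shown, held it at 9 bases. Of all 32851 promoter windows of this length in the table, 41.5% hold TTGGC, so a match is common. RefSeq windows were matched for 8 of 9 members, Ldb2 being the other. TTGGC or its complement lay in 8 of their 14 windows, some of which overlap each other, and in 6 of those 8 members. No member window held the palindrome, which 0.0365% of all windows hold. The homeodomain core TAAT or ATTA lay in 6 of 14 member windows, against 54.9% of all windows. These matches describe letters and say nothing of binding.

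All 9 members were detected in each of the 6 libraries. Lhx4 was called higher, no member was called lower, and 8 of 9 did not pass, where 13.9% of all tested genes were called in either direction, so the count of calls does not set the members apart. The 9 log2 fold changes had a median of 0.13, against -0.0083 over all tested genes, and 8 of 9 were above 0. Levels in the groups did not overlap for 4 members, Lhx3, Lhx4, Mnx1 and Ldb2, all higher, where 33.4% of tested genes did not overlap and 17.3% were higher without overlap. These same 4 had an unadjusted p under 0.05, as did 29.8% of all tested genes. With the length and GC trend removed, 2 members were called, Mnx1 and Ldb2, both higher, where 7.7% of tested genes were called in either direction and 3.82% as higher. In bulk RNA, fewer or more cells of a type and less or more RNA per cell cannot be told apart.

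**Figure D1:**
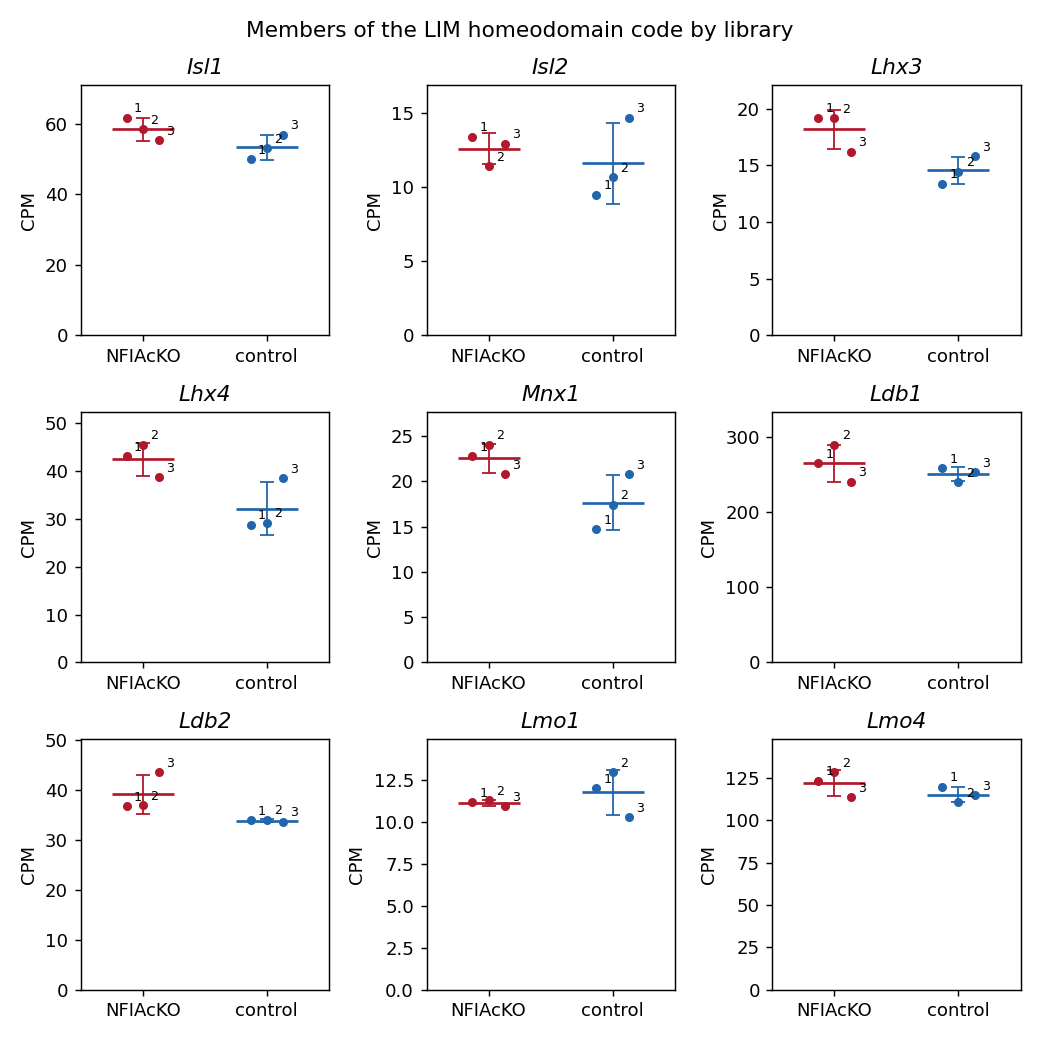
Level of each member in CPM (TMM-scaled, axes from 0) in the libraries labelled NFIAcKO (red, left) and control (blue, right), 1 numbered point per replicate, with mean and SD. In Lhx3, Lhx4 and Mnx1 all 3 libraries labelled NFIAcKO lie above control, with control replicate 3 close below them, while in Isl1, Isl2, Ldb1, Lmo1 and Lmo4 the groups overlap.

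Isl1, the LIM homeodomain factor of all newborn motor neurons, was not called. It reached 61.8, 58.5 and 55.3 CPM in NFIAcKO replicates 1 to 3, against 50.1, 53.1 and 57.0 CPM in control replicates 1 to 3. Control replicate 3 exceeded NFIAcKO replicate 3, so the groups overlapped. The log2 fold change was 0.13 (SE 0.08, 95% interval -0.04 to 0.31, adjusted p = 0.31). Isl1 (ENSMUSG00000042258.13, chromosome 13 of GRCm38, 116298281 to 116309689, minus strand) has 3959 bp of annotated exons.

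Isl2 follows Isl1 in motor neurons and takes part in visceral motor neuron fates. Its levels were 13.4, 11.4 and 12.9 CPM in NFIAcKO replicates 1 to 3 and 9.49, 10.6 and 14.7 CPM in control replicates 1 to 3. Libraries labelled NFIAcKO had an SD of 1.05 CPM and lay within the range of the control libraries, whose SD was 2.73 CPM. Its fold change was 0.12 on the log2 scale (95% interval -0.20 to 0.43, adjusted p = 0.65), and it was -0.014 without control replicate 1.

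Isl1 and Isl2 are also expressed outside motor neurons, in dI3 interneurons and in sensory neurons of the dorsal root ganglia that flank the cord. Of 9 sensory neuron markers beside Isl1 and Isl2, none was called by edgeR. Their summed level was 39.9 to 47.0 CPM in libraries labelled NFIAcKO and 40.6 to 75.8 CPM in those labelled control. Control replicate 3, with the highest of these sums, also had the highest Isl1, Isl2, Lhx3, Lhx4 and Mnx1 of the controls. NFIAcKO replicate 2 had the highest sum of its group (47.0 CPM) and the lowest Isl2 of that group (11.4 CPM). By smallest p, P2rx3 and Avil led that list (adjusted p = 0.14 and 0.19). The 6 Schwann cell and neural crest markers had sums of 35.0 to 46.2 CPM in libraries labelled NFIAcKO, against 39.3 to 58.0 CPM in control. The part of these cells in the Isl1 and Isl2 levels was not tested. Among 3 dI3 markers found by symbol, Otp rose (0.60, adjusted p = 0.0048), Tlx3 had a log2 fold change of -0.30 (adjusted p = 0.115) and Pou4f1 of 0.04 (adjusted p = 0.83). Otp is also expressed in other interneuron classes.

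Lhx3, the partner of Isl1 in the motor neuron complex, was higher in every library labelled NFIAcKO but was not called. Its levels were 19.2, 19.1 and 16.2 CPM in NFIAcKO replicates 1 to 3, against 13.4, 14.5 and 15.8 CPM in control replicates 1 to 3. NFIAcKO replicate 3 lay just above control replicate 3. On the log2 scale the fold change was 0.32 (SE 0.11, 95% interval 0.08 to 0.56, adjusted p = 0.071). It was called without control replicate 3 (0.38, adjusted p = 0.016) and by DESeq2 (0.33, adjusted p = 0.035), with adjusted p from 0.003 to 0.26 over all alternatives. Lhx3 (ENSMUSG00000026934.15, chromosome 2, 26200212 to 26208289, minus strand) shares 188 bp of exon with the antisense gene Gm27196. The strand setting of the counting is not stated in the available sources, which leaves its count uncertain by that overlap.

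Lhx4, the close paralog of Lhx3, was the member called higher. Its levels were 43.1, 45.5 and 38.7 CPM in NFIAcKO replicates 1 to 3, against 28.8, 29.2 and 38.4 CPM in control replicates 1 to 3. The lowest library labelled NFIAcKO and the highest control library were 38.7 and 38.4 CPM, so the groups were barely separate. Its log2 fold change was 0.40 (SE 0.11, 95% interval 0.16 to 0.64, adjusted p = 0.031), a 1.32-fold difference. The call was lost without NFIAcKO replicates 1, 2 and 3 (adjusted p = 0.12, 0.12 and 0.067) and without control replicates 1 and 2 (0.15 and 0.12), and was kept without control replicate 3 (0.54, adjusted p = 0.00015). Removing the length and GC trend ended the call too (0.33, adjusted p = 0.056), and adjusted p over the alternatives that keep all or 4 libraries ran from 2.18e-06 to 0.073. Lhx4 (ENSMUSG00000026468.14, chromosome 1, 155698031 to 155751684, minus strand) has 5740 bp of annotated exons, the longest of the members.

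Mnx1, which secures motor neuron identity, ran parallel to Lhx4. Its levels were 22.8, 24.0 and 20.8 CPM in NFIAcKO replicates 1 to 3, against 14.7, 17.4 and 20.8 CPM in control replicates 1 to 3. NFIAcKO replicate 3 and control replicate 3 were level at 3 digits. The fold change, on the log2 scale, was 0.35 (SE 0.12, 95% interval 0.09 to 0.62, adjusted p = 0.070). It passed with the trend removed (0.42, adjusted p = 0.041), without control replicate 3 (0.48, adjusted p = 0.0026) and in DESeq2 (0.36, adjusted p = 0.031), with adjusted p between 0.00031 and 0.31 over all alternatives. Mnx1 (ENSMUSG00000001566.9, chromosome 5, 29473034 to 29478470, minus strand) has 2250 bp of exons.

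The difference in these factors lay in replicate numbers 1 and 2. For Lhx4 the log2 ratio of the library labelled NFIAcKO to the control library of the same number was 0.58, 0.64 and 0.01 in numbers 1 to 3. For Mnx1 it was 0.63, 0.47 and 0.0022, and for Lhx3 0.52, 0.40 and 0.03. For Isl1 it was 0.30, 0.14 and -0.04. Number 3 is also the pair that the file names set apart. Among the 4 libraries that share the other file number, Lhx3, Lhx4, Mnx1 and Isl1 were all called higher, with log2 fold changes of 0.46, 0.61, 0.54 and 0.22 (adjusted p = 0.003, 2.18e-06, 0.00031 and 0.040). In that fit 29.3% of all 17926 tested genes were called in either direction and 16.1% as higher. The remaining file number held 1 library of each group and gives no test. Nfia had log2 ratios of 0.82, 0.87 and 0.59 in numbers 1 to 3, so it was higher in the library labelled NFIAcKO in each.

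**Figure D2:**
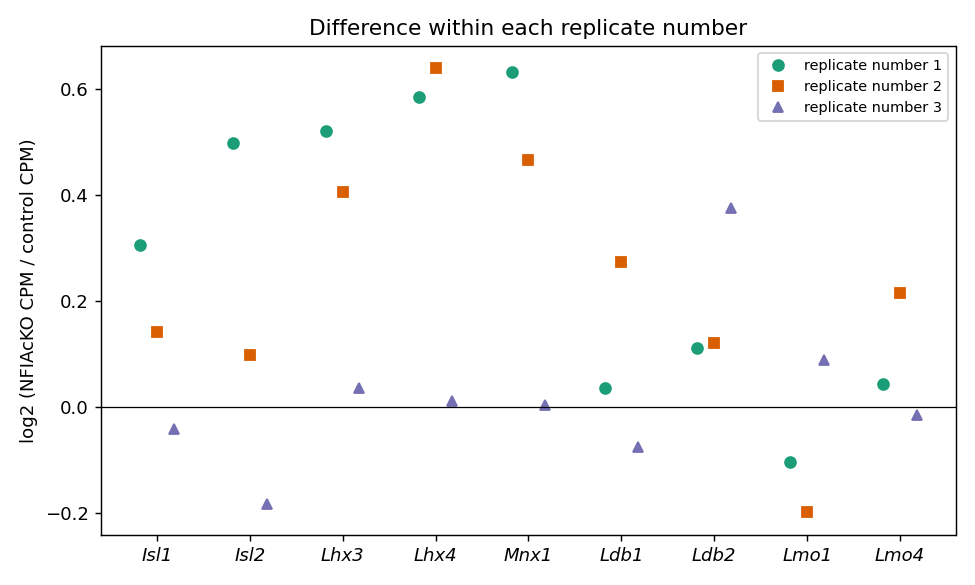
Log2 ratio of CPM, NFIAcKO over control, within each replicate number (circles, squares and triangles for numbers 1, 2 and 3) for the 9 members. In Lhx3, Lhx4 and Mnx1 numbers 1 and 2 lie at 0.40 to 0.64 while number 3 lies at 0.0022 to 0.03, and Ldb2 runs the other way with its highest ratio, 0.38, in number 3. Direction is relative to labels that the Nfia level goes against.

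Ldb1, the shared dimerizing cofactor of LIM homeodomain factors, was the most abundant member and was not called. It stood at 265, 289 and 240 CPM in NFIAcKO replicates 1 to 3 and at 258, 240 and 253 CPM in control replicates 1 to 3. NFIAcKO replicate 3 lay within the control range. Its log2 fold change was 0.08 (SE 0.09, 95% interval -0.10 to 0.26, adjusted p = 0.58), and -0.01 with the trend removed. Ldb1 (ENSMUSG00000025223.15, chromosome 19, 46031570 to 46045214, minus strand) shares 177 bp of exon with Pprc1 on the opposite strand.

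Ldb2, the second LIM domain binding cofactor, was tight in control. It had 36.7, 37.0 and 43.6 CPM in NFIAcKO replicates 1 to 3, against 34.0, 34.0 and 33.6 CPM in control replicates 1 to 3. All libraries labelled NFIAcKO lay above all control libraries, the highest being replicate 3. The log2 fold change was 0.21 (SE 0.09, 95% interval 0.01 to 0.40, adjusted p = 0.14). With the trend removed it was called (0.31, adjusted p = 0.040), and without NFIAcKO replicate 3 it was 0.11 (adjusted p = 0.50). Ldb2 is expressed in endothelial cells too. Of 6 endothelial markers Cdh5, Kdr and Pecam1 rose (0.55, 0.49 and 0.27), Cldn5 fell (-0.30), and the list's sum was 347 to 377 CPM in libraries labelled NFIAcKO and 277 to 331 CPM in those labelled control. With the trend removed Cdh5 and Kdr were called (0.55 and 0.31), and Pecam1 and Cldn5 were not (0.18 and -0.16, adjusted p = 0.115 and 0.146). The part of these cells in the Ldb2 level was not tested.

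The LIM-only proteins were not called, and their groups overlapped. Lmo4, which binds Ldb1 in motor neurons and V2b interneurons, had 123, 128 and 114 CPM in NFIAcKO replicates 1 to 3 and 120, 111 and 115 CPM in control replicates 1 to 3 (log2 fold change 0.08, 95% interval -0.09 to 0.25, adjusted p = 0.53). Lmo1, first known from leukaemia, had 11.1, 11.3 and 10.9 CPM in NFIAcKO replicates 1 to 3 and 11.99, 12.96 and 10.3 CPM in control replicates 1 to 3. Its log2 fold change, -0.08 (95% interval -0.33 to 0.17, adjusted p = 0.70), was the single value below 0 among members, and it was 0.12 once the trend was removed. Lmo1 has 1552 bp of exons, the shortest of the members.

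**Figure D3:**
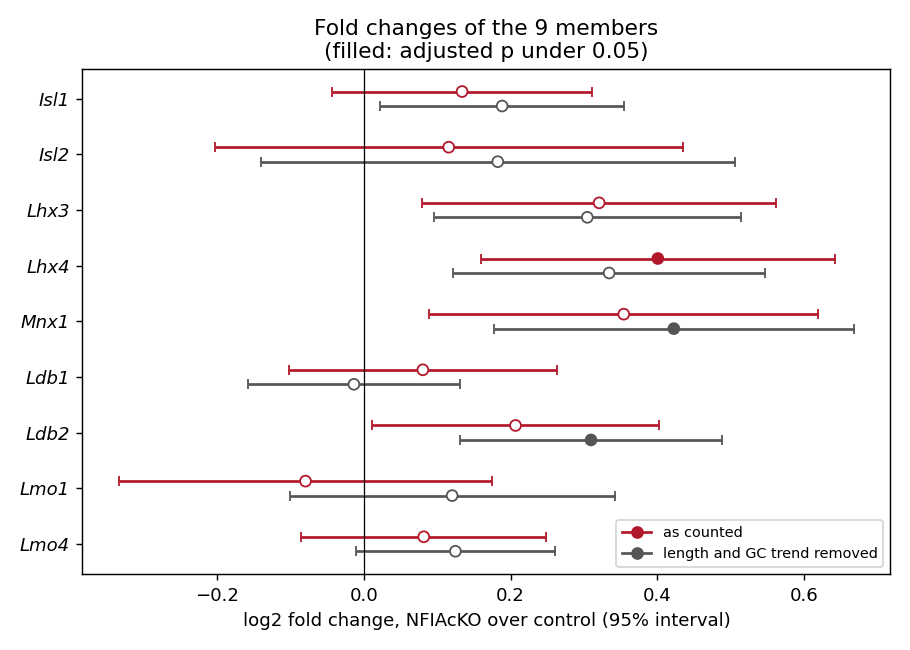
Log2 fold changes of the members, libraries labelled NFIAcKO over control, with 95% intervals, as counted (red) and with the length and GC trend removed (grey), filled where called. Lhx4 was called as counted at 0.40, and Mnx1 and Ldb2 at 0.42 and 0.31 with the trend removed.

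Levels can be compared between genes per exonic length, as TPM, in which counts are divided by exonic length and scaled to 1 total in every library. Ldb1 averaged 221 ± 14.6 TPM in libraries labelled NFIAcKO and 204 ± 13.2 TPM in those labelled control (SD, n = 3 each), and Lmo4 averaged 133 ± 5.36 TPM in libraries labelled NFIAcKO and 122 ± 7.28 TPM in control. Isl1 came next at 57.0 ± 3.32 TPM in libraries labelled NFIAcKO and 50.5 ± 4.70 TPM in control. In all 6 libraries it exceeded Ldb2, which averaged 45.2 ± 5.48 TPM in libraries labelled NFIAcKO and 38.01 ± 1.08 TPM in control. Mnx1 had 38.6 ± 1.86 TPM in libraries labelled NFIAcKO and 29.4 ± 5.89 TPM in control. Lhx4, Lmo1, Lhx3 and Isl2 were the lowest, between 16.1 and 30.3 TPM in every library, and Lmo1 changed places with Mnx1 and with Lhx4, and Isl2 with Lhx3, between libraries. The ranges of Ldb1 and of Lmo4 over the 6 libraries did not touch those of any other member, while from Isl1 down each range overlapped the next.

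**Figure D4:**
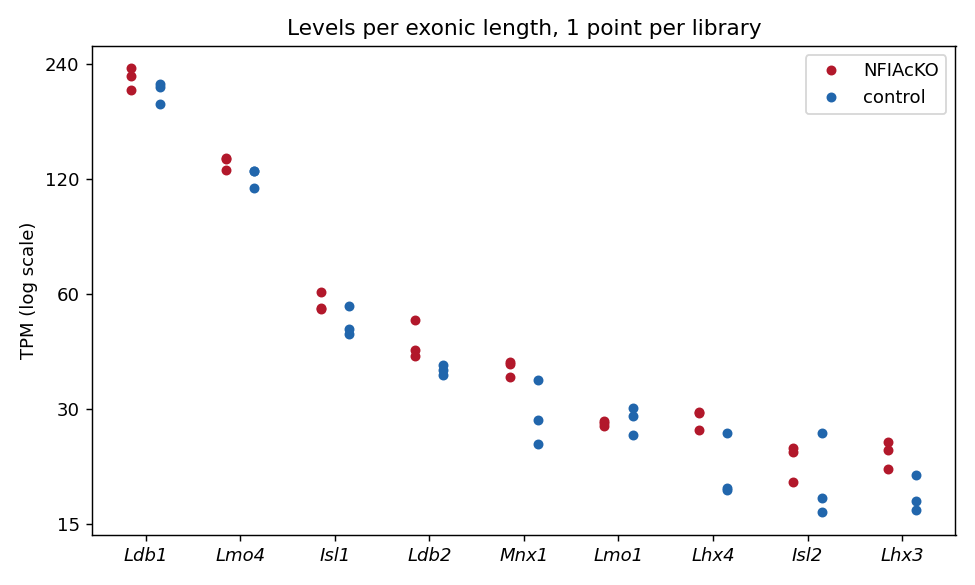
TPM of each member on a log axis, 1 point per library, NFIAcKO red on the left and control blue on the right, members ordered by their control mean. Ldb1 and Lmo4 stand apart, with a lowest value of 114 TPM, and Lhx4, Isl2 and Lhx3 lie lowest in control.

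Ratios within a library are free of library scaling, and 6 were compared by a two-sided exact permutation test whose smallest possible p is 0.1. In whole cord the ratio of Isl1 to Lhx3 is no measure of motor neuron against V2 complexes within a cell. Isl1 is also expressed in dI3 and sensory neurons, and V2a interneurons express Lhx3 without Isl1. The ratio was 2.47, 2.35 and 2.63 in NFIAcKO replicates 1 to 3, against 2.87, 2.82 and 2.77 in control replicates 1 to 3. It was lower in every library labelled NFIAcKO, by 0.19 on the log2 scale as a difference of means (-0.19, exact p = 0.1, 0.3 adjusted over 6 ratios). Mnx1 to Isl1 was 0.648, 0.723 and 0.662 in NFIAcKO replicates 1 to 3 and 0.517, 0.577 and 0.642 in control replicates 1 to 3, higher without overlap (0.23, exact p = 0.1, adjusted 0.3). The design could not pass the threshold for either.

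The other ratios overlapped between groups. Isl1 to Isl2 averaged 2.59 ± 0.239 in libraries labelled NFIAcKO and 2.61 ± 0.407 in control (exact p = 1). Lhx3 to Lhx4 averaged 0.808 ± 0.0281 in libraries labelled NFIAcKO and 0.862 ± 0.0798 in control (exact p = 0.4). Lmo4 to Ldb1 was the steadiest, at 0.601 ± 0.0196 in libraries labelled NFIAcKO and 0.600 ± 0.00711 in control (SD, n = 3 each; exact p = 0.9). The 4 LIM homeodomain factors together amounted to 0.491 ± 0.0284 of Ldb1 plus Ldb2 in libraries labelled NFIAcKO and 0.452 ± 0.0544 in control (exact p = 0.4).

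Likeness of pattern was measured as the root mean square difference in log2 CPM over the 6 libraries, each gene centred on its mean, as a description. Among members Ldb1 and Lmo4 were most alike at 0.0292, then Lhx4 and Mnx1 at 0.069 and Lhx3 and Mnx1 at 0.0859, and Lhx4 and Lmo1 were least alike at 0.337. Among 14333 genes of at least 1 CPM, Aldh1a2, a retinoic acid enzyme of limb motor neurons and meninges, was nearest to Isl1 (0.0166), followed by Fzd1 and Stat5b. Aldh1a2 was not called as counted (log2 fold change 0.14, adjusted p = 0.30) and was called higher with the trend removed (0.28, adjusted p = 0.0466). Notch1, Has2 and Fignl2 were nearest to Mnx1 (0.0533 to 0.0609), of which Notch1 was called higher (adjusted p = 0.040). Tnpo3, Sh3bgrl3 and Pnrc1 were nearest to Ldb1 (0.0149 to 0.0234).

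Other genes of the LIM network mostly did not pass. Of 9 tested LIM homeodomain and LMO genes outside the members, Lhx1, the factor of lateral limb motor neurons and of several interneuron classes, rose (204.6 ± 24.7 CPM in libraries labelled NFIAcKO, 153 ± 22.8 CPM in control, SD, n = 3 each, log2 fold change 0.42, adjusted p = 0.027). Lmo2, a LIM-only protein of blood, endothelium and V2b interneurons, fell to 51.8 ± 1.62 CPM in libraries labelled NFIAcKO, against 64.3 ± 8.90 CPM in control (-0.31, adjusted p = 0.0445). The list's median was 0.09. Among 6 partners and regulators of LDB proteins, Ssbp3, which binds LDB proteins, rose to 507 ± 40.8 CPM in libraries labelled NFIAcKO, against 394 ± 45.5 CPM in control (0.36, adjusted p = 0.026), and Rlim, a ubiquitin ligase that marks LDB proteins for degradation, had a log2 fold change of 0.17 (adjusted p = 0.14). Lhx1, Lmo2 and Ssbp3 stayed called without control replicate 3 and lost the call without any other single library, with adjusted p up to 0.117, 0.16 and 0.113. Blocking on the replicate number, neither Lhx1 nor Lmo2 passed (0.43 and -0.30, adjusted p = 0.0538 and 0.0588), and with the trend removed Lmo2 and Ssbp3 did not (adjusted p = 0.207 and 0.0622).

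V2a interneurons, which express Lhx3 and Lhx4 without Isl1, had 2 of 5 markers called higher in the libraries labelled NFIAcKO, Shox2 among them, and 3 that did not pass (list median 0.43). Over all tested genes 7.86% were called higher. With the length and GC trend removed 3 of the 5 were called higher, where 3.82% of tested genes were. Shox2, a homeobox factor of V2a and other excitatory interneurons, had 45.5, 45.6 and 37.3 CPM in NFIAcKO replicates 1 to 3, against 30.4, 28.2 and 36.8 CPM in control replicates 1 to 3 (0.43, adjusted p = 0.023). As in Lhx4 and Mnx1, control replicate 3 lay nearest to the libraries labelled NFIAcKO. The part of V2a cells in the Lhx3 and Lhx4 levels was not tested. Among 5 V2b genes Gata3 rose (0.44, adjusted p = 0.040) and 4 did not pass.

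Some genes were called in each of 4 further lists, of progenitor, cholinergic, motor axon and motor column genes. Every call was higher in the libraries labelled NFIAcKO, where 7.86% of all tested genes were called higher. These genes are not all particular to motor neurons, and the part of motor neurons in their levels was not tested. Among 7 progenitor factors Nkx6-1 and Irx3 rose (0.47 and 0.37, adjusted p = 0.0354 and 0.0404). Olig2 stood at 13.3 ± 1.77 CPM in libraries labelled NFIAcKO and 14.8 ± 1.93 CPM in control (SD, n = 3 each, adjusted p = 0.475). Of 5 cholinergic genes, Slc10a4, a transporter of cholinergic vesicles, rose (0.41, adjusted p = 0.027), and Ache, Chat, Slc18a3 and Slc5a7 had log2 fold changes of 0.26, 0.22, 0.16 and 0.12 without passing. Of 12 genes of motor axons and postmitotic motor neurons, 5 were called higher and none lower by edgeR. Those called were led by Onecut2, Onecut1, Slit2 and Slit3 (0.88, 0.90, 0.42 and 0.50, adjusted p = 0.0008, 0.0065, 0.011 and 0.028). Of the 12 fold changes 11 were above 0, and Prph was at -0.15 without passing (adjusted p = 0.216). Prph had 110 to 114 CPM in libraries labelled NFIAcKO and 119 to 135 CPM in control. Of 10 motor column factors 6 rose, Lhx1 among them, led by Foxp1, Nos1, Nr2f2 and Zeb2 (0.58, 0.59, 0.43 and 0.34, adjusted p = 0.0044, 0.0096, 0.013 and 0.014). Onecut1 shares 2171 bp of exon on the same strand with Gm20649, so its count is uncertain. The medians of the last 2 lists were 0.35 and 0.38, beside 0.13 for the members. With the trend removed, Slit2 and Slit3 were not called (0.05 and 0.36, adjusted p = 0.731 and 0.0601), nor were Zeb2 and Nos1 (0.11 and 0.33, adjusted p = 0.452 and 0.0796). Onecut2, Onecut1, Foxp1 and Nr2f2 stayed called in that fit (0.66, 0.91, 0.35 and 0.31, adjusted p = 0.00675, 0.0146, 0.022 and 0.0429). In all, 2 of the 12 and 4 of the 10 were then called higher, and the medians were 0.21 and 0.26, beside 0.19 for the members.

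**Figure D5:**
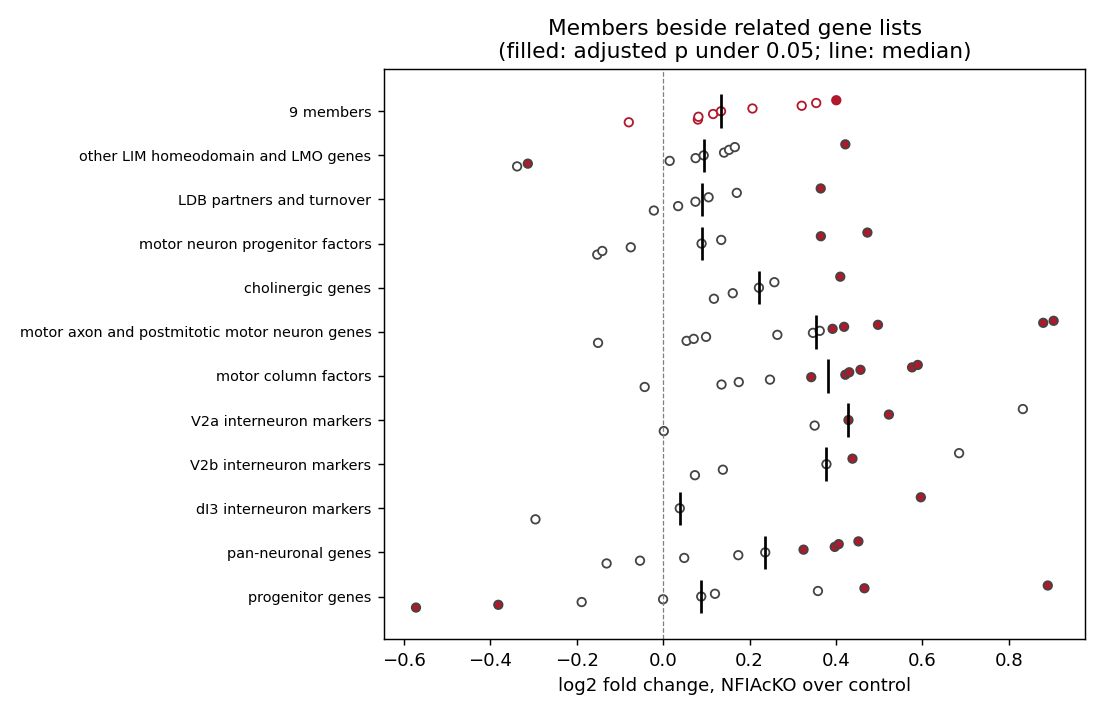
Log2 fold changes of the 9 members (red outline) and of the tested genes of 11 related lists, libraries labelled NFIAcKO over control, filled where called, with the median of each list as a line. The members' median is 0.13, between those of the LDB partner list at 0.09 and the cholinergic list at 0.22.

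Over all 20 lists beside the members, 128 genes were tested, of which 31 were called higher and 7 lower. Over all tested genes 7.86% were called higher and 6.08% lower. The lists were chosen with earlier results of these data known, so these counts are no test of the lists. Of the 38 list genes called, 7 stayed called without each library in turn (Cdh5, Foxp1, Hba-x, Nfia, Onecut1, Onecut2 and Otp). Without NFIAcKO replicates 1, 2 and 3, 8, 13 and 12 stayed called, and without control replicates 1, 2 and 3, 9, 19 and 37. Removing the length and GC trend left 19 called, removing it and blocking on the replicate number left 14, and the block alone left 30. Those lost in the block alone included, beside Lhx1 and Lmo2, Nkx6-1, Irx3, Gata3, Pecam1 and P2ry12 (adjusted p = 0.0657, 0.0544, 0.0527, 0.06 and 0.0514 in that order, against 0.0354 to 0.0473 without the block).

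General neuronal and progenitor genes give the setting of these values. Of 9 pan-neuronal genes Elavl3, Dcx, Syt1 and Rbfox3 were called higher (0.40, 0.45, 0.32 and 0.41), where 7.86% of all tested genes were. None was called lower by edgeR, and Stmn2, Snap25 and Tubb3 had log2 fold changes of -0.13, -0.05 and 0.05 without passing. The summed level was 9675 to 10148 CPM in libraries labelled NFIAcKO and 8571 to 8908 CPM in those labelled control. Of 9 progenitor genes Nes and Mki67 rose (0.47 and 0.89) and Fabp7 and Hes5 fell (-0.57 and -0.38), with sums of 2407 to 2745 CPM in libraries labelled NFIAcKO and 2449 to 2717 CPM in those labelled control. With the trend removed these 4 progenitor calls were lost, and Nes, Mki67, Fabp7 and Hes5 had log2 fold changes of 0.33, 0.72, -0.21 and -0.25 (adjusted p = 0.055, 0.0658, 0.072 and 0.167). Of the pan-neuronal calls Syt1 was then lost (0.20, adjusted p = 0.0619), while Elavl3, Dcx and Rbfox3 were called at 0.26, 0.31 and 0.26. Elavl4, not called as counted, was called higher in that fit (0.33, adjusted p = 0.0239), so 4 of the 9 were again called higher. The pan-neuronal median of 0.24 exceeded the members' median of 0.13, and with the trend removed these medians were 0.20 and 0.19. Whether the members moved with the neuronal share was not tested.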

How the data were processed

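Whole spinal cord RNA of 3 embryos labelled NFIAcKO and 3 labelled control was sequenced from Illumina stranded mRNA libraries, per the labels' protocols. Each deposited file lists raw counts against gene symbols. Tools listed in the submitters' processing notes, with no role given, are HTSeq, DESeq2 and STAR 2.6.1a, and the build is mm10. The 5 summary lines of each file, 16.9 to 19.4% of its total, were left out. Groups were compared with edgeR 4.0.16 under R 4.3.3 (quasi-likelihood F test, robust, TMM factors, filterByExpr), and p-values were adjusted by Benjamini-Hochberg over 17711 genes. Each SE was derived as the size of the log2 fold change divided by √F. The script was tested on simulated data. DESeq2 1.42.0 and limma 3.58.1 (voom) were alternatives. Lengths, GC content and coordinates came from GENCODE M21 (GRCm38). Trends were natural splines of 5 degrees of freedom per library, entered as offsets.

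Members and lists were chosen with earlier results of these data known. Named list genes were those called, up to 4 by smallest p, or the 2 of smallest p where none was, with some others given for contrast. Some genes of these lists are not reported here by name. Same-numbered libraries deviated together (correlations of 0.3535, 0.398 and 0.193 for numbers 1 to 3), so the replicate number was fitted as a block in an alternative. Each pair of libraries within a group differed by more than sampling noise (chi-square per degree of freedom 11.9 to 50.2).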

Additional observations from a re-analysis of the deposited data

How the results depend on the processing

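Each of the 9 members was refitted under 18 alternatives. With the replicate number as a block, Lhx4 kept its call (0.41, adjusted p = 0.044), and no other call on a member changed, while 8 of the 38 called list genes lost theirs. The calls on members were also those reported under DESeq2 size factors, upper quartile scaling, limma-voom, the non-robust fit, the file number as a block and Xist as a covariate. With no filter on low counts 2 members were called, Mnx1 joining at 0.36, with 1759 genes higher and 1427 lower of 31190 tested. By DESeq2's Wald test 3 members were called, with Lhx3 at 0.33 and Mnx1 at 0.36. That test called 1900 genes higher and 1406 lower of 13045. In the 4 libraries of 1 file number 4 were called (Isl1 0.22, Lhx3 0.46, Mnx1 0.54 beside Lhx4), with 2888 genes higher and 2356 lower overall. With the length and GC trend removed 2 members were called, Mnx1 (0.42) and Ldb2 (0.31), Lhx4 was not (0.33), and Ldb1 and Lmo1 changed sign (-0.014 and 0.12), with 677 genes higher and 686 lower overall. With the trend removed and the replicate number as a block the values were 2 called, Mnx1 0.43, Ldb2 0.31, Lhx4 0.34, Ldb1 -0.015 and Lmo1 0.12, with 706 genes higher. Leaving out each library gave 0 to 3 members called, 282 to 2703 genes higher and 139 to 2466 lower, and log2 fold changes of 0.26 to 0.39 for Lhx3, 0.32 to 0.54 for Lhx4, 0.23 to 0.48 for Mnx1 and -0.014 to 0.32 for Isl2. The ratio of Isl1 to Isl2 then differed by -0.14 to 0.085 and that of Lmo4 to Ldb1 by -0.015 to 0.030. Of the 128 tested genes of the other 20 lists, 31 were called higher and 7 lower as reported, 4 lower by limma-voom, 0 lower with the trend removed, 18 higher and 1 lower with trend and block, 51 higher in the 4 libraries, and 8 to 44 higher and 0 to 9 lower with a library left out. Except where fewer libraries entered, the cause of these differences was not tested. Lhx3, Isl2, Mnx1 and Lmo1 rest on 417 to 1114 counts per library.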

Other observations

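The remaining lists mark non-neural cells, forebrain and the NFI family. Of 6 microglial markers C1qb and P2ry12 were called lower (log2 fold changes -0.43 and -0.45, adjusted p = 0.019 and 0.045) and 4 did not pass, and both calls were lost with the length and GC trend removed (-0.23 and -0.17, adjusted p = 0.163 and 0.43). The list had sums of 65.8 to 72.3 CPM in libraries labelled NFIAcKO, against 81.8 to 89.4 CPM in control. Of 7 erythroid genes Hba-x, an embryonic globin, rose (0.52, adjusted p = 0.0046), and sums were 1636 to 2268 CPM in libraries labelled NFIAcKO and 1858 to 2112 CPM in control. Of 7 mesenchyme and meninges markers none was called by edgeR, and Dcn and Foxc1 had the smallest p (-0.20 and 0.34, adjusted p = 0.11 and 0.12). Skeletal muscle markers summed to 3.65 to 7.49 CPM in libraries labelled NFIAcKO and 2.66 to 7.05 CPM in control, with none of 4 tested called and Myh3 and Actc1 at 0.35 and 0.09 on the log2 scale. Of the 4 forebrain markers 2 were tested, Dlx2 and Lhx2 (0.65 and 0.08), and neither was called. In the NFI family Nfic rose beside Nfia (0.37, adjusted p = 0.034), though not with the trend removed (0.21, adjusted p = 0.118), and Nfib and Nfix did not pass (0.06 and 0.02).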
